A study of Mus musculus with 54 samples.

Results

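The genes described here are 10 genes of the acrosome and of sperm-egg fusion, chosen by name: Acr, Acrbp, Acrv1, Zpbp, Zpbp2, Spaca1, Spaca3, Izumo1, Spam1 and Adam3. All 10 were found by symbol among the 23284 genes of both count tables, and all 10 passed the filter on low counts in every comparison. The study compared mouse germ cells of 4 genotypes at 3 months of age: wild type (WT), Ctcf+/- (CTCF HET), Boris-/- (BORIS KO) and the compound mutant Ctcf+/-Boris-/- (CM, labelled DKO in the deposited titles), which carries both the single Ctcf deletion and the loss of Boris. Each preparation pooled 4 mice, so a value is that of a pool and not of an animal. RNA was sequenced from germ cell suspensions of whole testis (3 libraries per genotype, ribosomal RNA depleted) and from round spermatids and spermatocytes purified by elutriation and sorting (3 libraries per genotype, except 2 for WT spermatocytes, poly(A) RNA). By the paper's estimates neither fraction was free of other cells, and the spermatocyte fraction was the less pure one. Peak lists of CTCF, BORIS, RNA polymerase II (Pol2) and H3K4me3 ChIP-seq in WT germ cells, and of CTCF, Pol2 and H3K4me3 in CM germ cells, give 1 list per antibody and genotype.

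The acrosome is a cap-shaped vesicle that round spermatids build from the Golgi apparatus after meiosis, and its contents and membranes carry sperm through the coat of the egg. Its genes are transcribed in a strict order, some already in meiotic spermatocytes and others in haploid spermatids, where the activator CREM binds cAMP response elements in many promoters. CTCF is a zinc-finger protein that binds DNA in nearly all cells, and BORIS (Ctcfl) is its paralog of the male germ line with nearly the same zinc fingers. Among the 10 genes, Acr encodes the acrosomal protease acrosin and Acrbp the protein that binds its precursor proacrosin. Acrv1 (SP-10) lies in the acrosomal vesicle, and Zpbp and Zpbp2 are zona pellucida binding proteins of the acrosomal matrix. Spaca1 is a protein of the acrosomal membrane, and Spaca3 is a lysozyme-like acrosomal protein. Spam1 (PH-20) is the sperm hyaluronidase, Adam3 is a sperm surface protein needed for binding to the zona pellucida, and Izumo1 is the sperm protein that joins the egg receptor in membrane fusion.

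The promoters of 5 of these genes are shown first, since these 5 (Acrv1, Spaca1, Spaca3, Izumo1 and Spam1) turned out to be nearly silent in spermatocytes and switched on in round spermatids. Each line gives the 250 bases before the transcription start, 5′ to 3′ on the gene's strand, from RefSeq on the GRCm38.p6 assembly, and capitals mark TGACG or its complement CGTCA, the inner letters of a cAMP response element.
Acrv1: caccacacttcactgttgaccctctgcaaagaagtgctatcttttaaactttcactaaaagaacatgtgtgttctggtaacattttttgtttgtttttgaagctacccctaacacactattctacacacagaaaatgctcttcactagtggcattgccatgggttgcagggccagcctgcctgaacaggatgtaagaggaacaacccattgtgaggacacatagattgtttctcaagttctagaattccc
Spaca1: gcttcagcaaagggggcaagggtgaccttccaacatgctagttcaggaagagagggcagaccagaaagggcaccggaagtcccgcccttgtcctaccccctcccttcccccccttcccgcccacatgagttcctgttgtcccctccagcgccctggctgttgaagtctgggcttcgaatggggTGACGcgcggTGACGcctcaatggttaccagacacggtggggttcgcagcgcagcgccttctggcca
Spaca3: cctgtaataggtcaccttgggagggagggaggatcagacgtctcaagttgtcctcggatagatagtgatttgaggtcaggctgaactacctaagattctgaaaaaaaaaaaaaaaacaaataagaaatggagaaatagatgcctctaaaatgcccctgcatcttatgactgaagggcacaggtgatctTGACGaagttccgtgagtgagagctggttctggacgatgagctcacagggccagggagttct
Izumo1: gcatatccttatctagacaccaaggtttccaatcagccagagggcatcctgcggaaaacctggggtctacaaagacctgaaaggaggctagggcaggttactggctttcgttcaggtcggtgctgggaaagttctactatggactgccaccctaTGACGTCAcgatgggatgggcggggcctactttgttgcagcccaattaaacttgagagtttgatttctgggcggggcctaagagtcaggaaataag
Spam1: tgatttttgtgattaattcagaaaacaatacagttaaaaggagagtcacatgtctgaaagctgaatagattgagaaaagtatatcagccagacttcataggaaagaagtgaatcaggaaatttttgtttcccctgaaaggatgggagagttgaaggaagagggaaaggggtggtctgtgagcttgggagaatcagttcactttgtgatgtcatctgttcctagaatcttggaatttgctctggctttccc
Of the 10 genes, 8 had a promoter in the RefSeq table, all but Acr and Adam3. The full palindrome TGACGTCA, searched on both strands, stood in 1 of the 8, Izumo1, and in 1.6% of 27025 promoters of the same length. The shorter TGACG, which the palindrome contains, stood in 5 of the 8 (Acrbp, Izumo1, Spaca1, Spaca3 and Zpbp2) and in 17.8% of all promoters, and the Spaca1 promoter held it at 2 places, beginning 67 and 57 bases before the start. CCCTC, a stretch of the CTCF recognition sequence, stood in 8 of the 8 and in 59.7% of all promoters, GTTGCC in 1 (Acrbp) and 10.5%, AACNGNC in 1 (Spaca1) and 27.6%, and TATAAA in 0 of the 8 and 13% of all promoters. These matches describe letters in these windows only.

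A CTCF peak of WT germ cells lay within 2 kb of an annotated start of 3 of the 10 genes, Acrbp, Zpbp and Zpbp2. For Zpbp and Zpbp2 the 200 bases around the peak summit are shown from the plus strand of mm9. Capitals mark AGNNGGC, the inner letters of the CTCF recognition sequence, a motif chosen after these peaks were seen and found, on either strand, in 76.9% of the 34625 WT CTCF peaks.
Zpbp, chr11:11361955-11362154: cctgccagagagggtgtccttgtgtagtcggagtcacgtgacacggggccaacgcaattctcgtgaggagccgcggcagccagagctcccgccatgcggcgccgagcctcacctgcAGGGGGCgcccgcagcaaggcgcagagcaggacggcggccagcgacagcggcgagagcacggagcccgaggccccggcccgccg
Zpbp2, chr11:98415347-98415546: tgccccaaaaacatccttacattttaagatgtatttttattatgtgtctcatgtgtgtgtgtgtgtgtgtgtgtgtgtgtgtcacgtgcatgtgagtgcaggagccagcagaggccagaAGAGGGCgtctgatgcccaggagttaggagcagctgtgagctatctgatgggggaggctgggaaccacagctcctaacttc
The Zpbp stretch spans the end of the coding part of exon 1 and the start of intron 1 on the gene's minus strand. The Zpbp2 stretch lies in an intron.

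Depth per library ranged from 10437683 to 42055813 counts for whole testis, 47740650 to 98545423 for round spermatids and 53337530 to 88946702 for spermatocytes. Levels are given as CPM, the counts of a gene in every 1000000 counts of the library after TMM scaling, and whole testis and purified cells were scaled separately, so values are not compared across those tables. Ctcf, the gene deleted on 1 allele in CTCF HET and CM, had 40.9 to 45.1 CPM in whole testis of WT, and the CTCF HET (22.9 to 30.3 CPM) and CM (24.3 to 26.8 CPM) libraries lay below this. In round spermatids it was at 28.4 to 48.0 CPM in WT and 21.8 to 33.1 in CTCF HET, but the libraries labelled CM gave 171, 45.5 and 38.4 CPM, and in spermatocytes the libraries labelled CTCF HET (29.9 to 49.5 CPM) and CM (89.3, 34.8 and 36.4 CPM) were not below WT (33.6 and 36.0 CPM) either. These labels are therefore used as given, and results of CM in purified cells are also given without replicate 1, the library with the highest Ctcf level. Ctcfl (Boris) was under 1 CPM in every whole testis library and at 2.80 to 4.91 CPM in WT and 2.06 to 2.38 CPM in BORIS KO round spermatids, and a gene total does not tell which exons its reads came from. Of 12 spermatid markers such as Tnp1, 12 were called higher in WT round spermatids than in WT spermatocytes, and of 11 spermatocyte markers 7 were called lower and 3 higher. The CTCF HET spermatocyte libraries detected 12018 to 13406 genes, against 17631 and 17683 in WT, and CM detected 14932 to 16670 genes in round spermatids against 17504 to 17985 in WT.

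In WT animals the 10 genes fell into 2 sets, defined after their values were seen. Acr, Acrbp, Zpbp, Zpbp2 and Adam3 were already high in spermatocytes, whereas Acrv1, Spaca1, Spaca3, Izumo1 and Spam1 were close to 0 there and high in round spermatids. With edgeR's quasi-likelihood test and Benjamini-Hochberg adjustment over all genes tested, 10 of 10 genes were higher in round spermatids than in spermatocytes, where 35.8% of 16052 genes tested were called higher (adjusted p < 0.05 throughout). The difference was 5.76 to 6.51 on the log2 scale in the second set and 0.36 to 0.61 in the first, beside a median of 0.02 over all genes. A p-value here sets a difference against the variation between pooled preparations. Whether both cell types of the same replicate number came from the same cell suspension is not given in the sources used here. The fit treats their libraries as independent.

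Spam1, the hyaluronidase, had 307, 329 and 326 CPM in the 3 WT round spermatid libraries and 3.70 and 3.83 CPM in the WT spermatocyte libraries, a log2 difference of 6.51 (SE 0.13, edgeR adjusted p = 1.18e-07). Spaca1, the membrane protein, had 331, 328 and 360.4 CPM against 4.94 and 4.66 CPM, a difference of 6.24 (SE 0.13, edgeR adjusted p = 1.18e-07). Acrv1 had 222, 248 and 239 CPM against 3.46 and 3.30 CPM. In these 3 genes every round spermatid library stood more than an order of magnitude above every spermatocyte library. Izumo1, the fusion protein, had 74.7, 78.2 and 77.1 CPM in round spermatids and 1.28 and 1.75 CPM in spermatocytes. Spaca3, the lowest of the 10, had 27.8, 19.5 and 18.4 CPM against 0.256 and 0.387 CPM, which were 19 and 29 counts.

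The first set was different in kind. Adam3, the most abundant of the 10, had 2587, 2688 and 2831 CPM in WT round spermatids and 2276 and 2077 CPM in WT spermatocytes, a log2 difference of 0.41 (SE 0.09, edgeR adjusted p = 0.00456). Acr had 467, 537 and 501 CPM against 337 and 365 CPM, and Acrbp, whose product binds the proenzyme, had 954, 973 and 978 CPM against 702 and 700.1 CPM. Zpbp had 314, 313 and 346 CPM against 250.2 and 231 CPM, and Zpbp2 had 681, 693 and 716 CPM against 592 and 569 CPM. The round spermatid libraries were above the spermatocyte libraries without overlap for each of these 5 genes, as they were for 38.9% of all genes tested.

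**Figure D1:**
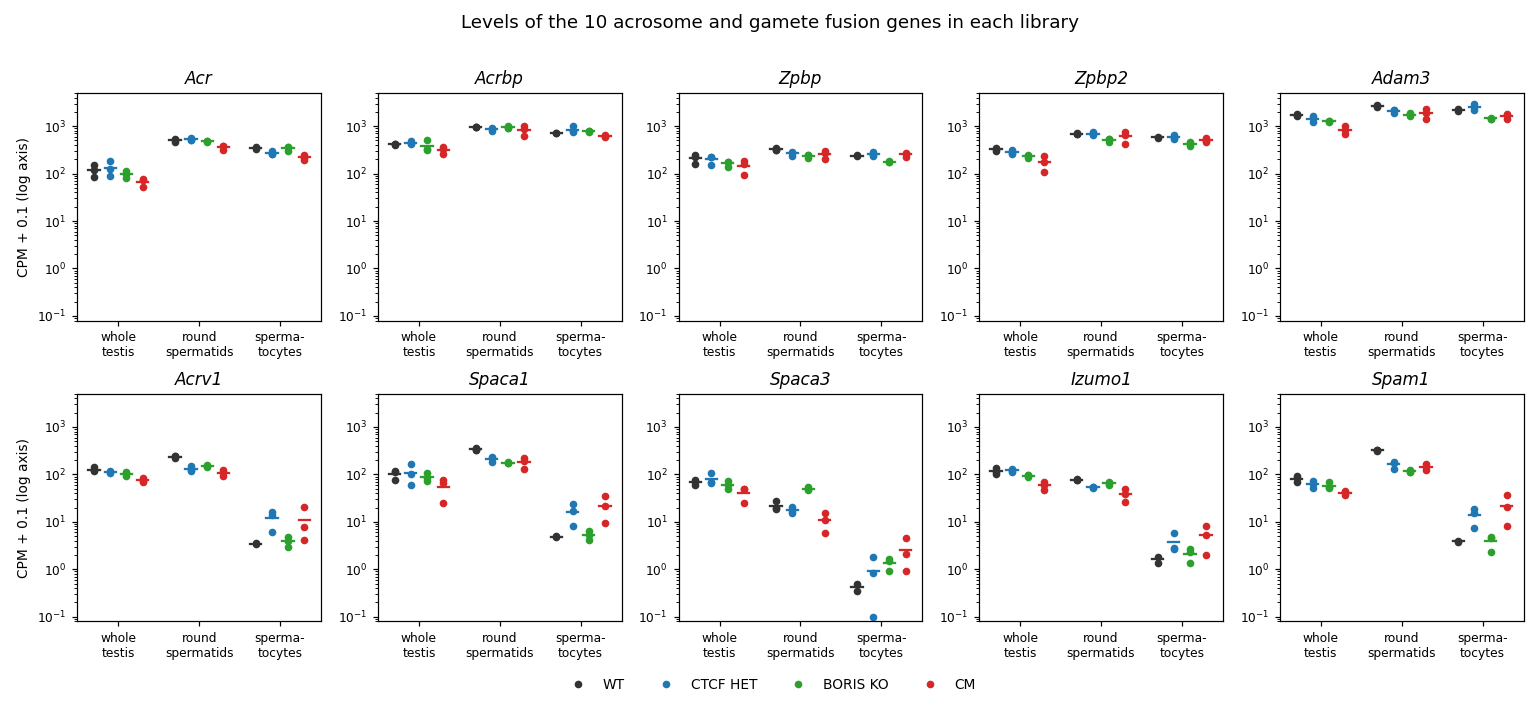
CPM of each gene in every library (points, log axis, 0.1 added so that a count of 0 can be drawn) by preparation and genotype, with the group mean as a bar. The upper row holds the 5 genes already high in spermatocytes and the lower row the 5 genes near 0 there, for which WT spermatocytes lie between 0.256 (Spaca3) and 4.94 CPM (Spaca1).

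Per kilobase of exon (CPM divided by the union of a gene's exons), the order of levels in WT round spermatids was led by Adam3 at 919 ± 41.7 CPM per kb (SD, n = 3). Zpbp2 (414 ± 10.3), Acr (334 ± 23.2) and Acrbp (295 ± 3.79) came next. Acrv1 (216 ± 12.3) and Spaca1 (213 ± 11.2) overlapped and were followed by Spam1 (159 ± 5.86) and Zpbp (76.4 ± 4.41). Izumo1 (25.6 ± 0.606) and Spaca3 (22.8 ± 5.32) stood last and overlapped as well. In whole testis the level per kilobase was again highest for Adam3 (586 ± 23.6, SD, n = 3) and Zpbp2 (193 ± 14.7), Acrbp (128 ± 2.97) and Acrv1 (116 ± 12.2) overlapped, and Spam1 (40.4 ± 4.99) and Izumo1 (39.1 ± 5.45) were lowest and overlapped. In WT spermatocytes Acrv1 (3.09 CPM per kb) and Spaca1 (3.01) overlapped, and Izumo1 (0.506) and Spaca3 (0.335) were lowest, with n = 2.

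The rise into round spermatids was also measured in each mutant. The count of genes called higher in round spermatids was 10 of 10 for BORIS KO (41.7% of all genes), 6 of 10 for CTCF HET (29.7%) and 6 of 10 for CM (16%). Acr and the 5 genes of the second set made up the 6 in both. Spam1, at 6.51 in WT, had a difference of 4.97 (SE 0.24) for BORIS KO, 3.54 (SE 0.36) for CTCF HET and 2.80 (SE 0.50) for CM. Spaca3, at 6.18 in WT, had 5.33 (SE 0.18), 4.38 (SE 1.14) and 2.23 (SE 0.69) in the same order. Acrbp, Zpbp, Zpbp2 and Adam3 did not pass in CTCF HET or CM, with differences of -0.32 to 0.22 and 0.09 to 0.50.

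**Figure D2:**
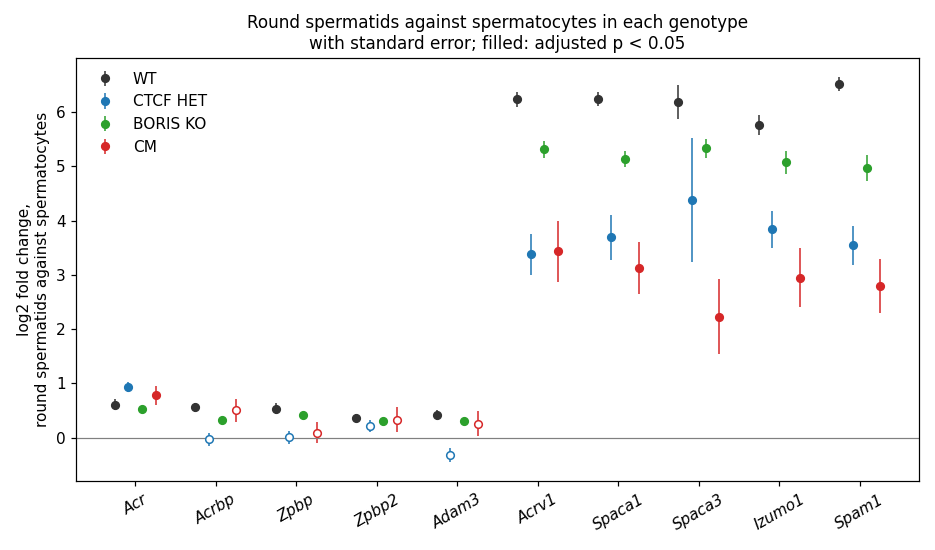
Log2 fold change of each gene between round spermatids and spermatocytes within each genotype, with its standard error, filled where edgeR's adjusted p was under 0.05. The 5 genes on the right, a set defined from WT levels, lie at 5.76 to 6.51 in WT and at 2.23 to 3.43 in CM.

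The differences between genotypes were compared between the cell types directly, in fits of 4 groups added after the data were seen. In CTCF HET against WT, 6 of 10 genes had a lower difference in round spermatids than in spermatocytes (10.6% of all genes called lower) and 1 a higher one (23% called higher). The lower ones were Spam1 (-2.88, SE 0.41, edgeR adjusted p = 0.00146), Acrv1 (-2.75, SE 0.44), Spaca1 (-2.46, SE 0.46), Izumo1 (-1.83, SE 0.40), Adam3 (-0.64, SE 0.16) and Acrbp (-0.50, SE 0.16). The higher one was Acr (0.41, SE 0.14), close to the all-gene median of 0.33, and with RLE scaling, which moved these differences by -0.38, it was 0.03. In BORIS KO 3 of 10 were lower (10.4% of all genes), Spam1 (-1.58, SE 0.29), Spaca1 (-1.15, SE 0.19) and Acrv1 (-0.96, SE 0.21). In CM 5 of 10 were lower (3.43% of all genes), Spaca3 (-3.91, SE 0.84), Spam1 (-3.67, SE 0.58), Spaca1 (-3.08, SE 0.55), Acrv1 (-2.76, SE 0.62) and Izumo1 (-2.76, SE 0.62). These are the genes of the second set, which was defined by its WT levels in these cell types. The same WT levels enter the difference, so the match with that set is no separate support. The BORIS KO count was 0 without WT spermatocyte replicate 2 (0.0524% of all genes called lower) and 5 without BORIS KO spermatocyte replicate 1 (10.6%). The CM count stayed at 5 without CM replicate 1 of either cell type (4.5% and 5.4% of all genes called lower). It was 0 without WT round spermatid replicate 2 or 3 or either WT spermatocyte library, 2 without WT round spermatid replicate 1 or CM spermatocyte replicate 2, and 3 and 1 without CM round spermatid replicates 2 and 3, and in these fits 0% to 3.34% of all genes were called lower.

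In whole testis, CM had lower levels of the acrosome genes than WT. The 10 log2 fold changes were all below 0, with a median of -0.86 beside 0.00 over all genes, and 4 of 10 genes passed the test, with 8.8% of 16378 genes called lower. For 8 of 10 the CM libraries lay below WT without overlap, as they did for 22.3% of all genes tested. In such bulk samples fewer spermatids and less RNA per spermatid cannot be told apart.

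Adam3, needed for zona binding, had 1779, 1742 and 1645 CPM in WT and 698, 1002 and 820.2 CPM in CM, a log2 fold change of -1.05 (SE 0.25, edgeR adjusted p = 0.021). Izumo1 had 102, 134 and 115 CPM in WT and 46.6, 68.9 and 60.7 CPM in CM, a change of -1.01 (SE 0.25, edgeR adjusted p = 0.0228). Spam1 had 82.7, 90.5 and 70.6 CPM against 36.4, 45.1 and 41.9 CPM (-1.0, SE 0.22, edgeR adjusted p = 0.0189). In each of these 3 genes every CM library was below every WT library. Acrv1 had 116, 142 and 123 CPM against 72.0, 69.5 and 82.8 CPM, again without overlap (-0.78, SE 0.21, edgeR adjusted p = 0.031).

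The other 6 genes did not pass. Zpbp2 was at 297, 336 and 343 CPM in WT and 111, 239.7 and 179 CPM in CM (-0.90, SE 0.31, edgeR adjusted p = 0.0596). Acr was at 82.9, 117 and 155 CPM against 51.1, 75.7 and 72.5 CPM (-0.85, SE 0.30, edgeR adjusted p = 0.0636). Both were below WT without overlap, and so were Spaca3 and Acrbp. Spaca1 was at 75.3, 110.4 and 115 CPM in WT and 24.6, 75.9 and 65.5 CPM in CM, and Zpbp at 162, 225 and 244 CPM against 91.9, 187 and 157 CPM, with overlap. Replicates of 1 number deviated together across the whole testis genotypes, and with the replicate number as a block 8 of 10 genes were called lower, with 19.2% of all genes called lower in that fit. This added, by log2 fold change and edgeR adjusted p, Acr (-0.82, 0.00878), Spaca1 (-1.0, 0.0057), Spaca3 (-0.81, 0.0111) and Zpbp2 (-0.97, 0.00886). The count was 0 without WT replicate 2, WT replicate 3 or CM replicate 3, where 11, 3 and 4 of all genes were called, and 2 without WT replicate 1, where 2.78% of all genes were called lower.

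Markers of other cells moved in the same CM libraries. Of 12 spermatid markers 5 were called lower and 0 higher (median -1.09), and their summed level was 23129 to 32693 CPM in WT and 6111 to 16754 CPM in CM, with none of the 12 at 0. Of 11 spermatocyte markers 2 were lower (median -0.11). Of 7 spermatogonia markers 2 were higher, and their sum was 79.0 to 94.1 CPM in WT and 149 to 435 CPM in CM. The paper describes KIT as a marker of differentiating spermatogonia and reports it in spermatocytes and round spermatids of CM testis as well. Whether the higher sum in CM came from spermatogonia alone was not tested. Among somatic cells, 5 of 7 Leydig cell markers were higher, with a sum of 379.8 to 610.1 CPM in WT and 1874 to 3815 CPM in CM, and 4 of 8 Sertoli cell markers were higher, with 219.9 to 345 CPM and 551 to 1162 CPM. For macrophages 4 of 6 markers were higher, while the sum ranged from 471 to 652 CPM in WT and 454 to 546 CPM in CM. Of 4 endothelial cell markers 1 was called higher, and of 3 peritubular cell markers 0. Among all 16378 genes tested, 2693 were called higher and 1442 lower. CM replicate 1 stood farthest from WT, with 112 CPM of Prm1, a protamine of elongating spermatids, against 885 to 3733 CPM in WT, and without it 4 of the 10 acrosome genes were still called, with 9.44% of all genes called lower. The part of these markers in the acrosome genes' change was not tested.

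Other genes of the acrosome and of fertilization were also lower in CM whole testis. Of 56 listed genes, 54 were in the tables and tested, 19 were called lower (8.8% of all genes) and 1 higher, with a median of -0.84. The lowest adjusted p among them belonged to Actl7a, an actin-related protein of the acrosome (-1.46, SE 0.25, edgeR adjusted p = 0.0154), Prss37, a serine protease homolog of the testis (-1.23, SE 0.23, edgeR adjusted p = 0.0159), Ccin (-1.14, SE 0.23, edgeR adjusted p = 0.0165), a protein of the sperm head cytoskeleton, and Hook1 (-1.31, SE 0.28, edgeR adjusted p = 0.0181), a microtubule adaptor of the spermatid. The gene that rose was Vps54, of the vesicle tethering complex at the Golgi (0.92, SE 0.23, edgeR adjusted p = 0.0245).

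**Figure D3:**
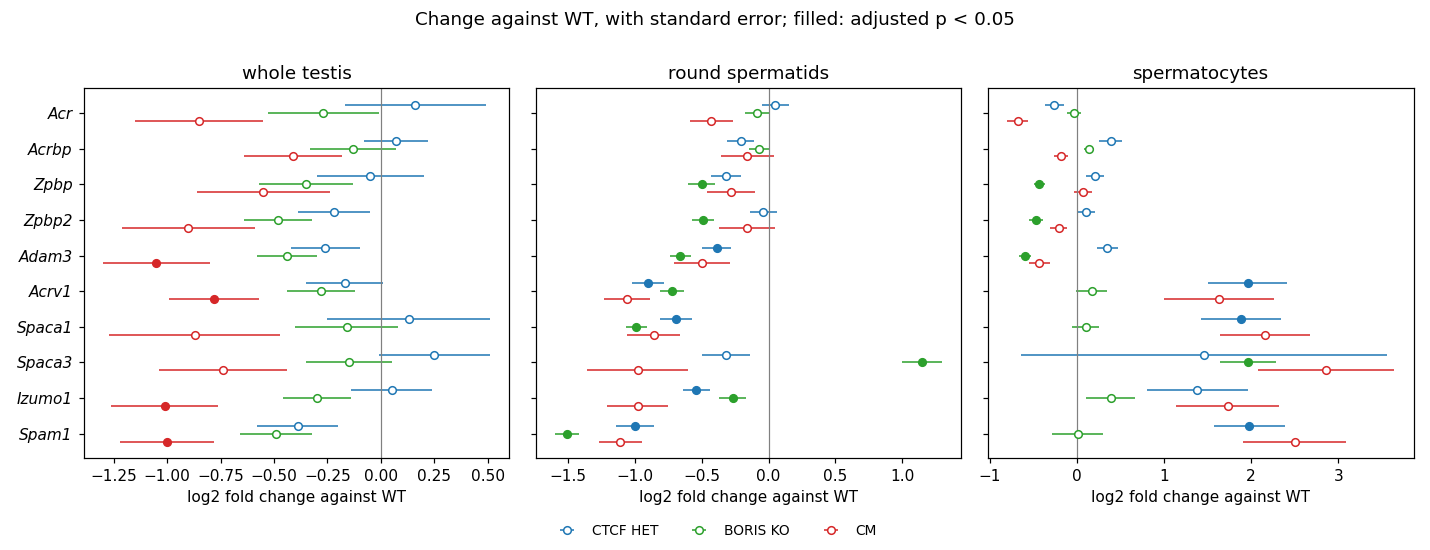
Log2 fold change of each gene against WT with its standard error in the 3 preparations, filled where edgeR's adjusted p was under 0.05, on separate horizontal scales. In whole testis all 10 CM values lie below 0, and in round spermatids the largest fall and the largest rise are those of Spam1 (-1.51) and Spaca3 (1.15) in BORIS KO.

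Neither single mutant gave a call among the 10 genes in whole testis. In CTCF HET, 0 of 10 genes were called (0.00621% of all genes), 0 at an unadjusted p under 0.05 (2.63% of all genes) and 0 by DESeq2, and 5 fold changes were above and 5 below 0, with a median of 0.00. In BORIS KO, 0 of 10 were called (0.0551% of all genes), with 3 at an unadjusted p under 0.05 (16.6% of all genes), and all 10 fold changes were below 0, with a median of -0.29. Adam3 had 1294, 1194 and 1302 CPM in BORIS KO, each below the WT libraries (-0.44, SE 0.14, edgeR adjusted p = 0.216), and Zpbp2 had 217, 246 and 231 CPM, each below WT too (-0.48, SE 0.16, edgeR adjusted p = 0.219). With the replicate block these 2 genes were called, at edgeR adjusted p = 0.0403 and 0.035, with 3.57% of all genes called lower. The BORIS KO libraries lay below WT without overlap for 5 of the 10 genes and for 10.2% of all genes tested. Neither mutant had a call among the other 54 acrosome genes, whose medians were -0.08 and -0.25.

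Compared with BORIS KO, CM whole testis gave 0 called genes of 10 (0.006% of all genes), 5 at an unadjusted p under 0.05 (21.6% of all genes), and 10 fold changes below 0 with a median of -0.55. The excess of CM over the sum of the single mutants, on the log2 scale, was called for 0 of 10 genes, and the share called was 0% of 17185 genes, with 1713 genes (9.97%) and 1 acrosome gene at an unadjusted p under 0.05. That gene was Izumo1 (-0.74, SE 0.27, edgeR adjusted p = 0.473).

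In round spermatids the count of called genes was highest in BORIS KO. There 7 of 10 genes were lower and 1 was higher, with 29% and 26.8% of 15513 genes called lower and higher. Spam1 fell the most, from 307, 329 and 326 CPM in WT to 111, 112 and 127 CPM (-1.51, SE 0.09, edgeR adjusted p = 5.7e-06). Spaca1 went from 331, 328 and 360.4 CPM to 173, 175 and 182 CPM (-0.99, SE 0.08, edgeR adjusted p = 2.33e-05). Both were lower in every BORIS KO library, with a difference larger than the spread between replicates. BORIS KO libraries lay below WT without overlap for 30.9% of all genes tested. Acrv1 had 141, 149 and 155 CPM in BORIS KO (-0.72, SE 0.09), and Adam3 had 1759.9, 1890.1 and 1628 CPM (-0.66, SE 0.08). Zpbp (-0.50, SE 0.10), Zpbp2 (-0.49, SE 0.08) and Izumo1 (-0.27, SE 0.10) were lower as well.

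Spaca3 moved the other way. Its level was 27.8, 19.5 and 18.4 CPM in WT and 49.4, 53.0 and 47.3 CPM in BORIS KO round spermatids (1.15, SE 0.15, edgeR adjusted p = 0.000252), with every BORIS KO library above every WT library, as for 33% of all genes tested. Acr (494, 471 and 489 CPM, -0.09, SE 0.09) and Acrbp (1029, 920.3 and 907 CPM, -0.07, SE 0.08) overlapped WT and did not pass. Of the 54 other acrosome genes 24 were lower and 13 higher, beside 29% and 26.8% of all genes. Of the 12 spermatid markers 4 were higher and 1 was lower, and their sum was 1888 to 1950.4 CPM in WT and 1469.7 to 2254 CPM in BORIS KO, with none at 0.

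In CTCF HET round spermatids 5 of 10 genes were lower and 0 higher, with 12.8% of 15238 genes called lower. Spam1 had 172, 132 and 186 CPM (-1.0, SE 0.14, edgeR adjusted p = 0.00318), and Acrv1 had 124, 116 and 148 CPM (-0.90, SE 0.12, edgeR adjusted p = 0.00318). Spaca1 had 227, 181 and 237 CPM (-0.69, SE 0.12, edgeR adjusted p = 0.0076). For each of these genes every CTCF HET library lay below WT, as for 21.1% of all genes tested. Izumo1 (-0.54, SE 0.10) and Adam3 (-0.39, SE 0.11) were lower too, and Acr (0.05, SE 0.10) and Zpbp2 (-0.04, SE 0.10) overlapped WT. With all 4 genotypes in 1 fit, 2 of the 5 calls were left, Spam1 and Acrv1, with 2.6% of all genes called lower. Of the 54 other acrosome genes 17 were lower and 4 higher, and of the spermatid markers 6 of 12 were lower, with a sum of 1249.8 to 1388 CPM.

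In the round spermatid libraries labelled CM, 0 of 10 genes were called (0.00654% of 15298 genes), although 7 had an unadjusted p under 0.05 (20.5% of all genes). All 10 fold changes were below 0 (median -0.68), and 8 genes lay below WT without overlap (16.8% of all genes). Spam1 had 166, 124 and 142 CPM (-1.11, SE 0.16, edgeR adjusted p = 0.107), and Acrv1 had 122, 112 and 94.2 CPM (-1.06, SE 0.17, edgeR adjusted p = 0.107). Izumo1 had 48.6, 25.9 and 39.3 CPM (-0.98, SE 0.23, edgeR adjusted p = 0.147). These 3 genes were below WT in every library. Without replicate 1, whose Ctcf level was 171 CPM, 4 genes were called lower (3.15% of all genes), by log2 fold change and edgeR adjusted p Spam1 (-1.18, 0.0435), Acrv1 (-1.10, 0.0435), Izumo1 (-1.15, 0.0435) and Spaca1 (-1.01, 0.0446). DESeq2 called the same 4 genes (4.87% of all genes called lower), and 7 were called with all 4 genotypes in 1 fit (8.88%). In edgeR's pairwise fit none of the 10 was called when any other single library was left out. The fit without replicate 1 kept replicate 2, which had the lowest Spam1, Izumo1 and Spaca1 levels of the CM libraries. Spaca3 had 15.5, 11.1 and 5.68 CPM, below each WT library, which is the opposite of its direction in BORIS KO.

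In those libraries 0 of 12 spermatid markers were called, with a median of -0.98 and a sum of 663 to 1139.6 CPM against 1888 to 1950.4 CPM in WT. The sum of 7 spermatogonia markers was 85.5, 907 and 158 CPM in the 3 CM replicates and 53.3 to 73.96 CPM in WT, highest in replicate 2, which also had the lowest Spam1, Izumo1 and Spaca1 levels of the 3. Of these 7 markers, 5 were called higher in WT round spermatids than in WT spermatocytes, so in purified cells the list does not mark spermatogonia alone. The part of these markers was not tested.

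The difference between the combined and the single mutants could be tested in round spermatids. Compared with BORIS KO, the libraries labelled CM were lower for 1 of 10 genes, Spaca3 (-2.18, SE 0.37, edgeR adjusted p = 0.0151), with 10.9% of all genes called lower. This call was lost when any 1 of the 3 BORIS KO libraries was left out, while 3 and 4 genes were called without CM replicate 1 or 2, where 39.8% and 36% of all genes were called. Relative to the sum of the single mutants, 2 genes lay higher (19.1% of all genes), Spam1 (1.31, SE 0.22, edgeR adjusted p = 0.00103) and Spaca1 (0.72, SE 0.25, edgeR adjusted p = 0.0382), and 2 lay lower (18.4%), Spaca3 (-1.89, SE 0.42, edgeR adjusted p = 0.00451) and Acr (-0.48, SE 0.17, edgeR adjusted p = 0.0443). For Spam1 the changes against WT of CTCF HET, BORIS KO and CM were -1.0, -1.51 and -1.11. For Spaca3 they were -0.32, 1.15 and -0.98, and all 3 share the WT libraries. The count was 2 without any 1 of the 9 libraries of WT, CTCF HET and BORIS KO (27.4% to 35.6% of all genes called), and 7 without CM replicate 2 (45.9%).

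In spermatocytes, where the second set was near 0 in WT, 3 of its genes were higher in the libraries labelled CTCF HET. These were 3 of 10 genes called higher and 0 lower, with 6.77% of 13648 genes called higher. Spam1 had 18.3, 15.3 and 7.44 CPM against 3.70 and 3.83 CPM in WT (1.98, SE 0.41, edgeR adjusted p = 0.021). Acrv1 had 16.4, 13.9 and 5.96 CPM against 3.46 and 3.30 CPM (1.96, SE 0.45, edgeR adjusted p = 0.0288), and Spaca1 had 16.7, 24.0 and 7.97 CPM against 4.94 and 4.66 CPM (1.88, SE 0.46, edgeR adjusted p = 0.0338). In each, replicate 3 was the lowest CTCF HET library and still above WT, and 14.6% of all genes tested lay above WT without overlap. Without CTCF HET replicate 1 or replicate 2 none of the 10 was called. Spaca3 had 101, 0 and 36 counts in the 3 CTCF HET libraries, and the 0 allows up to 0.0577 CPM (3 counts, counting error only).

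In the spermatocyte libraries labelled CM, 0 of 10 genes were called (0.604% of 14747 genes), and 7 had an unadjusted p under 0.05 (29.8% of all genes). The libraries lay above WT without overlap for 5 genes (24.9% of all genes) and below for 4 (28.5%). Spam1 had 8.26, 20.2 and 36.4 CPM (2.50, SE 0.59, edgeR adjusted p = 0.0706), and Spaca3 had 0.818, 1.96 and 4.42 CPM against 0.256 and 0.387 CPM (2.86, SE 0.78, edgeR adjusted p = 0.0827). In both, replicate 1 was the lowest CM library. Acr went the other way, with 249, 198 and 216 CPM against 337 and 365 CPM (-0.68, SE 0.12, edgeR adjusted p = 0.058). Without replicate 1, 5 genes were called higher and 2 lower, with 17.9% and 21% of all genes called in those directions. By log2 fold change and edgeR adjusted p, Spaca3 (3.29, 0.00754), Spam1 (2.90, 0.0029), Spaca1 (2.53, 0.00282), Izumo1 (2.13, 0.00561) and Acrv1 (2.03, 0.0182) were higher, and Acr (-0.76, 0.0029) and Adam3 (-0.32, 0.0171) were lower. DESeq2 also called 7 with all libraries in, where it called 21.9% of all genes. With edgeR none of the 10 was called without CM replicate 2 or 3. Replicate 1 also had the lowest summed spermatid markers of the CM libraries.

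In BORIS KO spermatocytes 1 of 10 genes was higher and 3 were lower, with 29.1% and 28.1% of 14338 genes called in those directions. Spaca3 was the higher one, at 0.827, 1.56 and 1.37 CPM (1.96, SE 0.32, edgeR adjusted p = 0.00025), 59 to 142 counts. Adam3 had 1424, 1500.5 and 1427 CPM against 2276 and 2077 CPM (-0.59, SE 0.07, edgeR adjusted p = 1.65e-05). Zpbp (-0.43, SE 0.06) and Zpbp2 (-0.47, SE 0.08) were lower as well, with each BORIS KO library below WT, as for 35.5% of all genes tested. Spam1 (2.27, 4.39 and 4.72 CPM, 0.01, SE 0.29), Spaca1 and Acrv1 overlapped WT. Without BORIS KO replicate 1, which had the lowest Spam1, Spaca1 and Acrv1 levels, 6 of 10 genes were called higher and 3 lower, with 32.5% and 31.4% of all genes called in those directions. With all 4 genotypes in 1 fit the Spaca3 call was lost (1.95, edgeR adjusted p = 0.461), while 3 genes were still called lower. In the pairwise fits Spaca3 was higher than WT in BORIS KO in both purified cell types and Adam3, Zpbp and Zpbp2 lower in both. In spermatocytes these counts were near or under the all-gene shares of 29.1% and 28.1%, so they describe single genes and not the 10 as a set.

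Compared with BORIS KO, the libraries labelled CM had 3 higher genes in spermatocytes, Spam1 (2.47, SE 0.54), Spaca1 (2.04, SE 0.44) and Zpbp (0.47, SE 0.08), and 2 lower ones, Acr (-0.67, SE 0.11) and Acrbp (-0.35, SE 0.06), with 26.5% and 25.3% of all genes called in those directions. The count was 9 without CM replicate 1, with 61.9% of all genes called. The sum of the 12 spermatid markers was 55.8 and 56.7 CPM in WT spermatocytes. The 3 CTCF HET libraries had 116, 128 and 78.9 CPM, the BORIS KO libraries 90.3, 75.4 and 70.4 CPM, and the CM libraries 60.1, 117 and 188 CPM. The lowest CTCF HET value was in replicate 3 and the lowest CM value in replicate 1, the libraries with the lowest Spam1. In BORIS KO the order was the other way, with the highest sum in replicate 1, which had the lowest Spam1, Spaca1 and Acrv1, and there the sum was above WT while these 3 genes overlapped it. Called higher were 3 of the 12 markers for CTCF HET, 7 for BORIS KO and 0 for CM, with none lower, and 1 was at 0 in each CTCF HET library and in CM replicates 2 and 3. The part of these markers in the levels of the second set was not tested. Of the 54 other acrosome genes 10 were higher and 7 lower for CTCF HET, 15 and 18 for the BORIS KO libraries, and 1 and 0 for CM. Among all genes tested against WT, 924 of 13648 were called higher and 1195 lower for CTCF HET. For BORIS KO the all-gene shares were 29.1% and 28.1%, and for CM 0.604% were called in all.

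The ChIP-seq peaks were read at the loci of the 10 genes, with mm9 coordinates and starts from the GENCODE annotation of that build. Each list stands alone, so these are descriptions with no replicate error. A Pol2 peak lay within 2 kb of a start in 10 of 10 genes in WT and in CM (41.2% and 48.4% of 21872 genes matched), and an H3K4me3 peak in 9 of 10 in both (54.3% and 58.2%). Spam1, at chr6:24745824-24751048, was the gene without an H3K4me3 peak. A CTCF peak lay there in 3 of 10 genes in WT (31.6% of all genes) and in 2 in CM (13.7%), and a BORIS peak in 1 of 10 in WT (15.5%).

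Zpbp (chr11:11179629-11362411, minus strand) was the gene with both factors. Its WT CTCF peak at chr11:11361524-11362465 covered the start and had a height of 3505, above 97.2% of the peaks in its list, and its summit lay 356 bases into the gene, in intron 1. A BORIS peak at chr11:11361950-11362282 had a height of 354, above 92.6% of the BORIS list, with its summit in exon 1. In CM the CTCF peak at chr11:11361569-11362290 had a height of 393, above 62.6% of that list, and the AGNNGGC match printed above lies inside all 3. Reads of Zpbp may include reads of genes on the opposite strand that overlap it, 4930415F15Rik among them, since the use of strand in counting was not given in the sources used here.

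Acrbp (chr6:124999707-125013285) had its higher WT CTCF peak at chr6:125001155-125001764, in an exon 1720 bases from its first start, with a height of 2476 above 89% of the list, and a second one at chr6:125000283-125000741 with a height of 127. In CM a peak at chr6:125001353-125001675 remained in the list, with a height of 447 above 70.8% of it. Zpbp2 (chr11:98412411-98419979) had an intronic WT peak at chr11:98415326-98415573 with a height of 473, above 49% of the list, and none in CM. Acrbp overlaps Ing4 and Izumo1 overlaps Rasip1, each on the same strand, so part of their reads may belong to those genes.

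The other 7 genes had no CTCF or BORIS peak within 2 kb of a start. Counted over the whole gene and 2 kb around it, Izumo1 had 1 WT CTCF peak, 1 WT BORIS peak and 1 CM CTCF peak, and the rest had none. The nearest WT CTCF peak was 4.58 kb from a start of Izumo1 (chr7:52877181-52884193, overlapping Rasip1), 8.84 kb from Acr (chr15:89398757-89405015), 11.2 kb from Spaca3 (chr11:80671867-80681316) and 13.2 kb from Adam3 (chr8:25787697-25836324). For Spam1 the distance was 74 kb, for Acrv1 (chr9:36500805-36506422) 192 kb and for Spaca1 (chr4:34111849-34137166) 202 kb. The nearest WT BORIS peak was 4.56 kb from a start of Izumo1, 11.2 kb from Spaca3, 11.6 kb from Acr, 33.4 kb from Acrv1, 301 kb from Adam3 and 334 kb from Spaca1, and for Spam1 it lay farther away than for Spaca1.

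Since scores of separate lists were not shown to be on 1 scale, each gene's highest peak was ranked within its own list. The lists differ in length and in typical score, with 25192 Pol2 peaks in WT (median score 143) and 28407 in CM (113), and 34347 H3K4me3 peaks in WT (97.5) and 20432 in CM (185). A rank is a place in its list, and a different rank does not show a change at the gene. For Pol2 the rank was lower in the CM list than in the WT list for 8 of 10 genes and for 25.7% of 8648 genes with a peak in both, and the median difference was -4.77 percentage points beside 5.06. Spaca3 had 76.9% of the WT list and 57.5% of the CM list below it, Acrv1 98.4% and 83.7%, Spaca1 92.5% and 81.3%, and Spam1 69% and 58%. The rank was higher in CM for Izumo1 (85.7% and 87.5%) and Zpbp2 (81% and 82.3%). For H3K4me3 the rank was lower in the CM list for 8 of 9 genes and for 70.6% of 11176 genes, with medians of -9.95 and -4.36. Spaca3 had 96.1% and 56.5% of the lists below it, Spaca1 91.4% and 68%, Izumo1 72.8% and 52.1%, and Acr 98.2% and 99.3%. Acrv1 and Adam3 had higher H3K4me3 scores in the CM list (448 against 343, and 175 against 105) and lower ranks there. For CTCF the rank was lower in 2 of 2 genes and in 82.3% of 2869 genes.

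**Figure D4:**
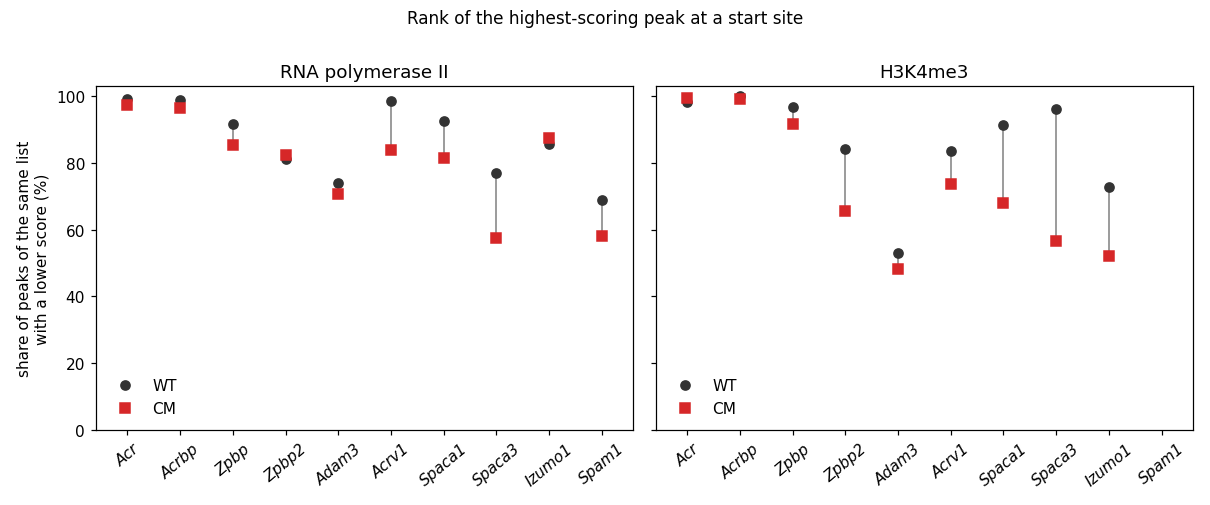
Share of the peaks in the same list with a lower score than the gene's highest peak within 2 kb of a start, for Pol2 and H3K4me3 in WT (circles) and CM (squares), joined by a line. Spaca3 has the widest gap between the lists in both panels (76.9% and 57.5%, 96.1% and 56.5%), Spam1 has no H3K4me3 peak, and the lists differ in length.

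The genes whose pattern was most like the mean of the 10 were found by Pearson's correlation of log2 CPM, as a description. Over the 12 whole testis libraries, among 15437 genes, they were Tssk4 (0.985), a testis-specific kinase, Ldhal6b (0.983), C87436 (0.982), 2210404O07Rik (0.980) and Stk30 (0.980). Among the members, Izumo1 (0.980) was closest to the mean and Acrbp (0.551) farthest. Over the 23 libraries of purified cells, among 11939 genes, they were Gtf2a1l (0.989), a germ cell form of a general transcription factor subunit, Fam161a (0.985), Dnajc18 (0.980), Tex21 (0.979) and Lrrc9 (0.977). The libraries share depth and cell composition, so these values carry no test.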

How the data were processed

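RNA was measured in 12 whole testis libraries and 23 libraries of purified round spermatids and spermatocytes. For each set the authors deposited 1 table of whole-number read counts by gene symbol, not normalized. Whole testis reads were aligned to mm9 with TopHat2 and Bowtie2, and the counting tool and its use of strand are not given in the sources used here. For CTCF and BORIS the authors deposited each peak's position, summit and height, a signal whose normalization is not stated, and for Pol2 and H3K4me3 a MACS score, listed from 50 upward, so weaker peaks are not seen and the depth behind the peaks is unknown. The authors called peaks with 1 list per antibody and genotype.

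Counts were filtered with filterByExpr, scaled by TMM and tested with edgeR 4.0.16 (R 4.3.3), by its robust quasi-likelihood F test, between the libraries of 2 groups. P-values were adjusted by Benjamini-Hochberg over all genes tested. A gene was called at adjusted p < 0.05. The study used DESeq2, and whether it fitted 2 groups or all genotypes together is not given in the sources used here. The excess of CM used all 4 genotypes in 1 fit. The 3 fits of genotype by cell type were added after the data were seen. The alternatives were RLE scaling, the DESeq2 1.42.0 Wald test, no low-count filter, adjusted p < 0.001 with fold change > 2, all 4 genotypes in 1 fit, the replicate number as a block, and leaving out each library. Replicates of 1 number deviated together in whole testis (18 of 18 pairs of libraries correlated above 0.1, 0.19 to 0.73) but not in round spermatids (9 of 18) or spermatocytes (2 of 15), so the block is given beside whole testis results. No library pair of a group agreed within sampling noise (the lowest mean chi-square per gene was 7.22 over 34 pairs).

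Peaks were counted within 2 kb of any annotated start (overlap of at least 1 base), with no test. Named genes were all 10 members, Ctcf and Ctcfl, up to 4 further acrosome genes per direction, called in CM whole testis with the lowest adjusted p, and the 5 genes most alike in pattern. The members and lists were chosen with earlier results of these data known. Of 56 other acrosome genes, Hyalp1 and Dcst2 were not found, and Spaca6, Eqtn, Spata46 and Fam209 were matched by older symbols. Promoters and the mm9 annotation were matched by symbol.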

Additional observations from a re-analysis of the deposited data

Results flagged for a closer look

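In round spermatids, the libraries labelled CM differed from the sum of CTCF HET and BORIS KO for 4 of the 10 genes. This was tested as an interaction of the 2 mutations on the log2 scale. Ctcf was at 38.4 to 171 CPM in these CM libraries, against 28.4 to 48.0 CPM in WT. Spam1 (1.31, SE 0.22) and Spaca1 (0.72, SE 0.25) lay above that sum, and Spaca3 (-1.89, SE 0.42) and Acr (-0.48, SE 0.17) below it, with edgeR adjusted p between 0.00103 and 0.0443. Of all genes 19.1% lay above and 18.4% below, which is near the share among the 10 genes. The count of 4 fell to 2 without any 1 of the WT, CTCF HET or BORIS KO libraries.

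The change against WT also differed between round spermatids and spermatocytes, by the fits of genotype and cell type that were added after the data were seen. The WT levels that defined the second set enter these differences. For CTCF HET the difference, round spermatids minus spermatocytes, was -2.88 for Spam1, -2.75 for Acrv1, -2.46 for Spaca1, -1.83 for Izumo1, -0.64 for Adam3, -0.50 for Acrbp and 0.41 for Acr, which was near the all-gene median of 0.33 and 0.03 with RLE scaling. For BORIS KO it was -1.58 for Spam1, -1.15 for Spaca1 and -0.96 for Acrv1. For the libraries labelled CM it was -3.91 for Spaca3, -3.67 for Spam1, -3.08 for Spaca1, -2.76 for Acrv1 and -2.76 for Izumo1. The summed spermatid markers were lower than WT in CTCF HET and CM round spermatids (1249.8 to 1388 and 663 to 1139.6 CPM against 1888 to 1950.4 CPM) and higher than WT in their spermatocytes (78.9 to 128 and 60.1 to 188 CPM against 55.8 and 56.7 CPM). In BORIS KO they overlapped WT in round spermatids (1469.7 to 2254 CPM) and were above it in spermatocytes (70.4 to 90.3 CPM), highest in replicate 1, where Spam1, Spaca1 and Acrv1 were lowest. The part of these markers in the result was not tested.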

How the results depend on the processing

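Of 988 values of called genes recomputed under the alternatives, 792 kept their direction and their side of the threshold, 196 kept their direction but no longer passed, and 0 changed direction. Counts of the 10 genes moved by over 1.5 times as follows, and where no cause is given the cause was not tested. With the replicate block, BORIS KO whole testis had 2 calls in place of 0 and CM whole testis 8 in place of 4, and the block moved no other count that far. At adjusted p < 0.001 and fold change > 2, a stricter rule by construction, 0 genes were called in CM whole testis, CTCF HET round spermatids, CTCF HET spermatocytes, CM against BORIS KO in either cell type, CM beyond the sum in round spermatids, round spermatids against spermatocytes in CM, and the 3 fits of genotype by cell type. That rule left 2 in BORIS KO round spermatids, 1 in BORIS KO spermatocytes and 5 in round spermatids against spermatocytes in WT and in BORIS KO. With all 4 genotypes in 1 fit the counts were 2 in CTCF HET and 7 in CM round spermatids, 4 in CM spermatocytes and 4 in CM against BORIS KO round spermatids. DESeq2 gave 4 in CM round spermatids, 5 in CTCF HET spermatocytes, 7 in CM spermatocytes and 3 in CM against BORIS KO round spermatids. The share of all genes called moved between these settings as well, so the counts do not describe the 10 genes alone. Without the low-count filter 0 were called in CTCF HET spermatocytes and 2 beyond the sum in round spermatids. A window of 5 kb gave 2 genes with a BORIS peak in place of 1.

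When single libraries were left out, the count ranged from 0 to 4 in CM whole testis, 0 to 4 in CM round spermatids, 0 to 3 in CTCF HET spermatocytes, 4 to 9 in BORIS KO spermatocytes and 0 to 7 in CM spermatocytes. It ranged from 0 to 4 in CM against BORIS KO round spermatids, 5 to 9 in CM against BORIS KO spermatocytes, 2 to 7 beyond the sum in round spermatids, 0 to 5 in the BORIS KO fit of both cell types and 0 to 5 in that of CM. In fits that left WT spermatocytes with 1 library, that library was assumed to vary like the other groups. The share of all genes called also moved when single libraries were left out, so these ranges do not describe the acrosome genes alone. Over all genes, edgeR called 2693 higher and 1442 lower in CM whole testis, DESeq2 called 5417 in all and the block 7043. In BORIS KO whole testis edgeR called 9, DESeq2 386 and the block 1077, in CM round spermatids 1 and DESeq2 1797, and in CM spermatocytes 89 and DESeq2 3225. Depth limits mainly Spaca3 in spermatocytes, at 0 to 282 counts.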
